A study of Caenorhabditis elegans with 2 samples.

Results

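The fatty acid desaturase and elongase genes of Caenorhabditis elegans were examined in whole nematodes that took up double-stranded RNA by feeding. The set comprised 7 desaturase genes (fat-1 to fat-7) and 3 elongase genes (elo-1, elo-2 and elo-5), chosen by gene symbol among the probe sets that the platform annotation gives to exactly 1 gene. Each of the 10 genes had 1 such probe set, of 20766 probe sets with 1 gene and 17118 genes with a probe set of their own. Messenger RNA was measured on 2 Affymetrix arrays, where several short oligonucleotides, together a probe set, measure 1 transcript. One array held animals fed Escherichia coli HT115 that made double-stranded RNA for imp-2, an intramembrane aspartyl protease gene of the signal peptide peptidase family. The other held animals fed HT115 that made double-stranded RNA for green fluorescent protein (GFP), which the nematode genome does not encode and which served as the control. Both groups shared the bacterial strain and the feeding route, and each held 1 array. The sources used here do not give the strain, age or stage of the animals, and the source label names a mammalian brain region beside the whole animal.

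Nematodes make polyunsaturated fatty acids from saturated ones, a capacity that mammals lack in part. Desaturases place double bonds in the acyl chain and draw their electrons from cytochrome b5, while elongases carry out the condensing step that adds a pair of carbons in the endoplasmic reticulum. The delta-9 desaturases FAT-5, FAT-6 and FAT-7 make monounsaturated fatty acids, with FAT-5 acting on palmitate and FAT-6 and FAT-7 mainly on stearate. FAT-2 turns oleate into linoleate, and FAT-3, ELO-1, FAT-4 and FAT-1 then act in turn on the way to arachidonic and eicosapentaenoic acid. ELO-2 lengthens palmitate, and ELO-5 makes the branched-chain fatty acids that the animal needs for growth. Several of these genes are expressed chiefly in the intestine, the main fat store of the animal, and some also in the epidermis.

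After trimming 2% of the probe sets at each end, the mean was 150.04 on both arrays. Scaling of the values before deposit can set such an equality, so it does not measure how alike the arrays were. The target gene did not settle the labels, since 1 imp-2 probe set read 1754 under the label imp-2 RNAi and 2318 under the label GFP RNAi (1.33-fold lower) and the other 2517 and 509.8 (4.90-fold higher). The set with the higher value under the imp-2 RNAi label carries a suffix (_s) that marks possible matches to several transcripts, and the set with the lower value does not. The arrays are therefore called imp-2-labelled and GFP-labelled, and each direction is a direction between labels. A gene was taken as expressed when its mean log2 intensity exceeded the median of that mean over all non-control probe sets, which held for 8553 genes. Ratios are log2 ratios of the imp-2 RNAi label over the GFP RNAi label, with the median over expressed genes set to 0. With 1 array per group there was no replicate check, no test and no p-value, so "higher" and "lower" describe these arrays. As a yardstick, 2489 pairs of expressed probe sets that shared a gene differed by a root mean square of 0.53 on the log2 scale, and the 1231 pairs at least as bright as the dimmest of the 10 genes by 0.46. Differences of 1 or more were seen in 6.19% of the 2489 pairs and 3.82% of the 1231. Neither root mean square holds anything of the spread between cultures, and neither is a cutoff for gaps between genes.

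All 10 genes were expressed, and all lay above the median intensity of each array, 35.3 on the imp-2-labelled one and 30.1 on the GFP-labelled one, which served as a floor. On the imp-2-labelled array 3 of the 10 were higher by 2-fold or more, and 0 of the 10 were lower by as much. Over all expressed genes, 9.72% were higher and 2.27% were lower by 2-fold or more. The 3 genes were fat-5, fat-6 and fat-2, whose enzymes place the first and the second double bond. The other 7, with the delta-9 gene fat-7 among them, lay within 2-fold, and the median log2 ratio of the 10 was 0.15, against 0 for all expressed genes by the centring. The medians were 0.72 over the 7 desaturases and −0.17 over the 3 elongases, a difference that was not tested. Their ranges overlapped, from −0.11 to 2.51 for the desaturases and from −0.76 to 0.06 for the elongases.

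**Figure D1:**
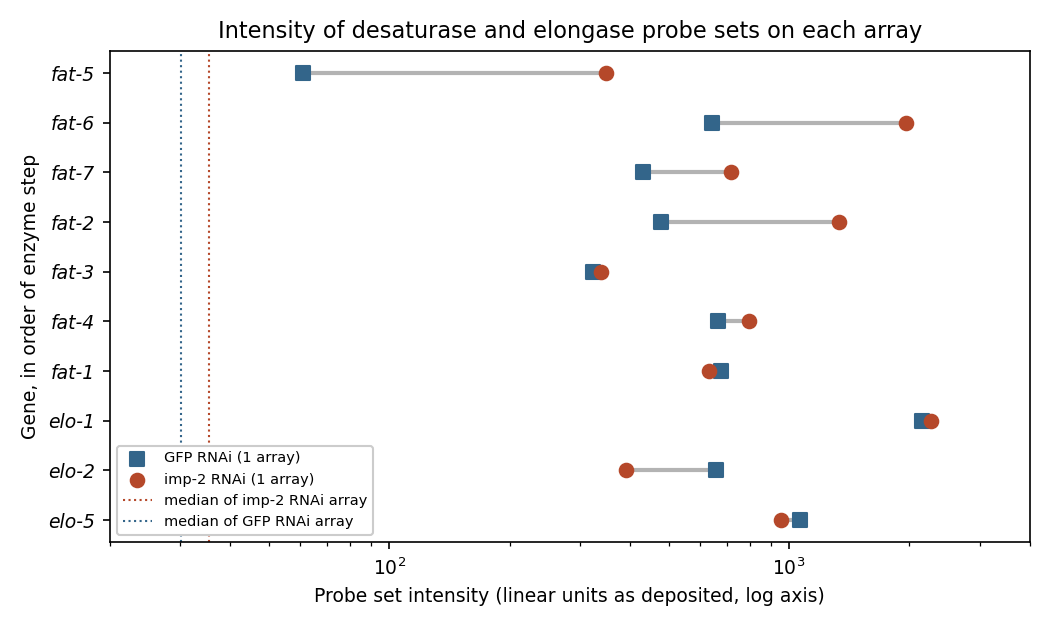
Deposited probe set intensity (log axis) of the 10 genes, with 1 square for the GFP RNAi array, 1 circle for the imp-2 RNAi array and dotted lines at each array's median intensity. The circle lies well to the right of the square for fat-5 (349 against 60.7), fat-6 (1966 against 641) and fat-2 (1336 against 479), and to the left for elo-2 (390.3 against 655). Probe sets differ in how strongly they bind, so positions are compared within a gene and not between genes.

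Among the delta-9 desaturase genes, fat-5 had the highest ratio of the 10. The palmitate desaturase gene fat-5 read 349 on the imp-2-labelled array against 60.7 on the GFP-labelled array, a 5.70-fold difference (log2 ratio 2.51). Its GFP-labelled value was 2.02 times that array's floor. Only 26 of the 8553 expressed genes had a higher ratio, since fat-5 ranked 27 from the top. Among the 500 genes nearest to it in brightness, 16.2% were higher by 2-fold or more and 2 had a ratio at least as high as that of fat-5.

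The stearate desaturase gene fat-6 read 1966 against 641, a level 3.05-fold higher on the imp-2-labelled array (log2 ratio 1.61). It ranked 177 among the expressed genes, and in its range of brightness high ratios were rarer, with 3.2% of the 500 nearest genes past 2-fold higher and 1 with a ratio as high. The fat-6 probe set carries the _s suffix. Transcripts of its close paralog fat-7 are therefore not separated from those of fat-6 with certainty.

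The second stearate desaturase gene, fat-7, had a smaller difference, at 716 on the imp-2-labelled and 432 on the GFP-labelled array. The fold of 1.64 (log2 ratio 0.72) fell short of 2-fold, and 1340 expressed genes had a higher ratio (rank 1341). Of the 500 genes of like brightness, 27 had a ratio at least as high. The fat-7 probe set has no such suffix. The 3 delta-9 genes were thus all above 0, over a range of 1.80 on the log2 scale. The gap between fat-5 and fat-6 was 0.90, larger than the root mean square difference of 0.53 between probe sets of 1 gene. That difference pools all levels of brightness.

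The delta-12 desaturase gene fat-2, whose product makes linoleate and opens the polyunsaturated branch, read 1336 on the imp-2-labelled and 479 on the GFP-labelled array. It was 2.77-fold higher on the former (log2 ratio 1.47). It ranked 270 among the expressed genes, and 5 of the 500 genes nearest in brightness had a ratio at least as high. Its ratio and that of fat-6 differed by 0.14, less than the root mean square difference between probe sets of 1 gene.

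The later steps of the polyunsaturated branch lay close to 0. The delta-6 desaturase gene fat-3 read 339 on the imp-2-labelled and 324 on the GFP-labelled array (log2 ratio 0.06). The polyunsaturated fatty acid elongase gene elo-1 read 2272 and 2156 (log2 ratio 0.06). The delta-5 desaturase gene fat-4 read 793 and 665 (log2 ratio 0.24), and the omega-3 desaturase gene fat-1 read 631 and 677 (log2 ratio −0.11). These 4 genes spanned 0.36 on the log2 scale and no neighbouring pair among them in the order of ratios was separated by more than 0.18. In that order the gap between fat-2 and the next gene, fat-7, was 0.75. The gap between fat-7 and fat-4 was 0.47, between the root mean square probe set differences of 0.46 and 0.53.

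**Figure D2:**
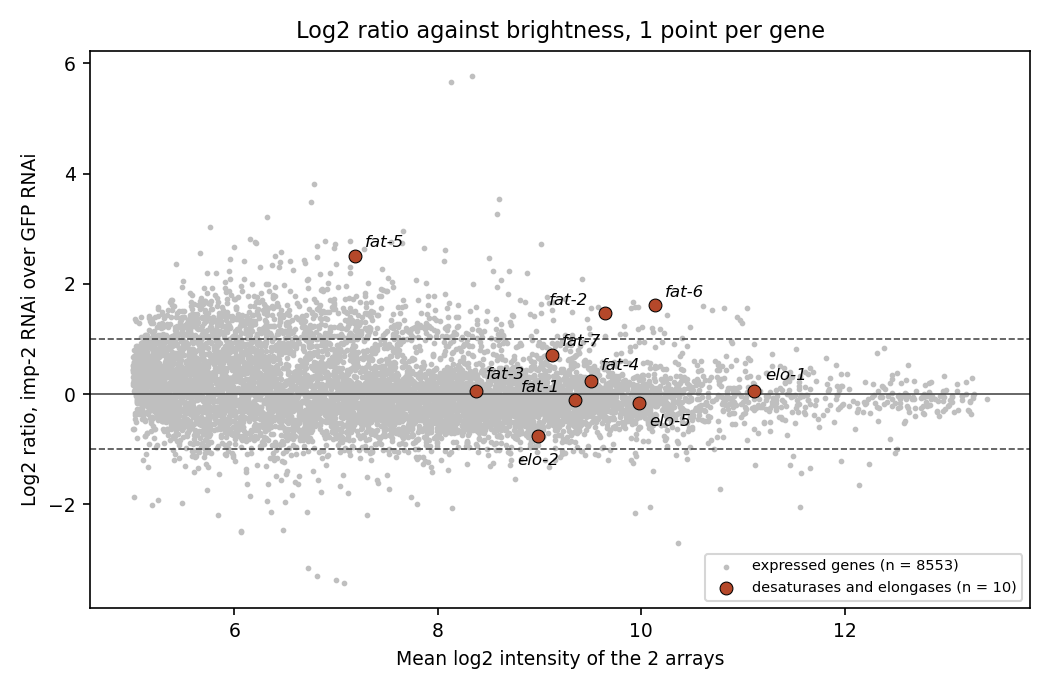
Log2 ratio of the imp-2 RNAi label over the GFP RNAi label (vertical axis) against mean log2 intensity of both arrays (horizontal axis), with 1 grey point for each of 8553 expressed genes, circles for the 10 desaturase and elongase genes, and dashed lines at 2-fold. The genes fat-5 (2.51), fat-6 (1.61) and fat-2 (1.47) lie above the upper dashed line, in parts of the plot where few genes of like brightness reach them, and the other 7 lie between the lines.

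The elongase genes held no ratio past 2-fold in either direction. The gene elo-2, whose product lengthens palmitate and polyunsaturated fatty acids, had the lowest ratio of the 10. It read 390.3 on the imp-2-labelled array against 655, a 1.69-fold lower value (log2 ratio −0.76). Of the expressed genes 434 had a lower ratio (rank 435 from the bottom), and 14 of the 500 genes of like brightness were at least as low. The branched-chain elongase gene elo-5 read 955 and 1066 (log2 ratio −0.17), and its probe set carries the suffix for possible matches to several transcripts. The gap between elo-5 and elo-2 was 0.59, slightly above the root mean square probe set difference of 0.53.

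Of the 6 other elongase genes, 5 had a probe set and 3 were expressed. The gene elo-6, which acts with elo-5 in the synthesis of branched-chain fatty acids, read 637 on the imp-2-labelled and 1439.6 on the GFP-labelled array. It was 2.28-fold lower on the former (log2 ratio −1.19), past 2-fold where elo-5 was not, and its probe set too is suffixed. The elo-6 and elo-5 ratios were not set against each other by a test. The gene elo-4 had a log2 ratio of 0.68 and elo-3 of −0.12, both from dim probe sets between 45.2 and 73.1. Both elo-7 and elo-9 fell below the expression threshold, and elo-8 was not analysed here.

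The enzymes that work beside desaturases and elongases lay within 2-fold. In the elongation cycle, the ketoacyl-CoA reductase gene let-767, the enoyl-CoA reductase gene art-1 and the hydroxyacyl-CoA dehydratase gene hpo-8 had log2 ratios of 0.30, 0.22 and 0.37. Of the electron donors, the cytochrome b5 genes cytb-5.1 and cytb-5.2 had log2 ratios of 0.65 and 0.10 and hpo-19, of the cytochrome b5 reductase family, had 0.29, while T05H4.4 was below the expression threshold. Upstream, the fatty acid synthase gene fasn-1 had a log2 ratio of 0.50 and the ATP citrate lyase gene acly-1 one of −0.46, the highest and the lowest of 5. The other acly-1 probe set had the opposite sign (0.26). The median of these 5 synthesis genes was −0.13.

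Of 10 expressed regulators of desaturase genes, 1 was past 2-fold higher on the imp-2-labelled array and 0 were past 2-fold lower. The shares over all expressed genes were 9.72% and 2.27%, so this count lay near them. Their median log2 ratio was 0.08. The higher one was sbp-1, the homolog of the sterol regulatory element binding protein, which read 111 against 44.5 and was 2.46-fold higher (log2 ratio 1.30) on a suffixed probe set. The fold of 2 was not reached by nhr-49, a nuclear receptor known to activate delta-9 desaturase genes (0.03), nor by mdt-15, the Mediator subunit that works with it and with SBP-1 (−0.23). The lowest ratio was that of nhr-13, another nuclear receptor of this circuit (−0.44). The receptor gene nhr-80 was below the expression threshold.

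Among 6 expressed genes that use the products, acs-22 was the 1 past 2-fold, beside 9.72% of all expressed genes past 2-fold higher. It encodes an acyl-CoA synthetase of the fatty acid transport protein family and read 118 against 32.1, a 3.66-fold difference, with the GFP-labelled value just above that array's floor of 30.1. The lowest was the cytochrome P450 gene cyp-33E2 (log2 ratio −0.40). Of the sphingolipid desaturase relatives, ttm-5 was 2.71-fold higher (132 against 48.5, log2 ratio 1.44). Its other probe set gave 1.14, a bound, since its GFP-labelled value of 28.5 lay under the floor. The other relative, F33D4.4, had a log2 ratio of −0.45, with 0.14 on its other probe set.

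Over the 7 pathway lists together, 3 of 32 expressed genes (9.38%) were higher and 1 (3.12%) was lower by 2-fold or more. Their median log2 ratio was 0.15. These shares lay near those of all expressed genes, 9.72% and 2.27%.

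**Figure D3:**
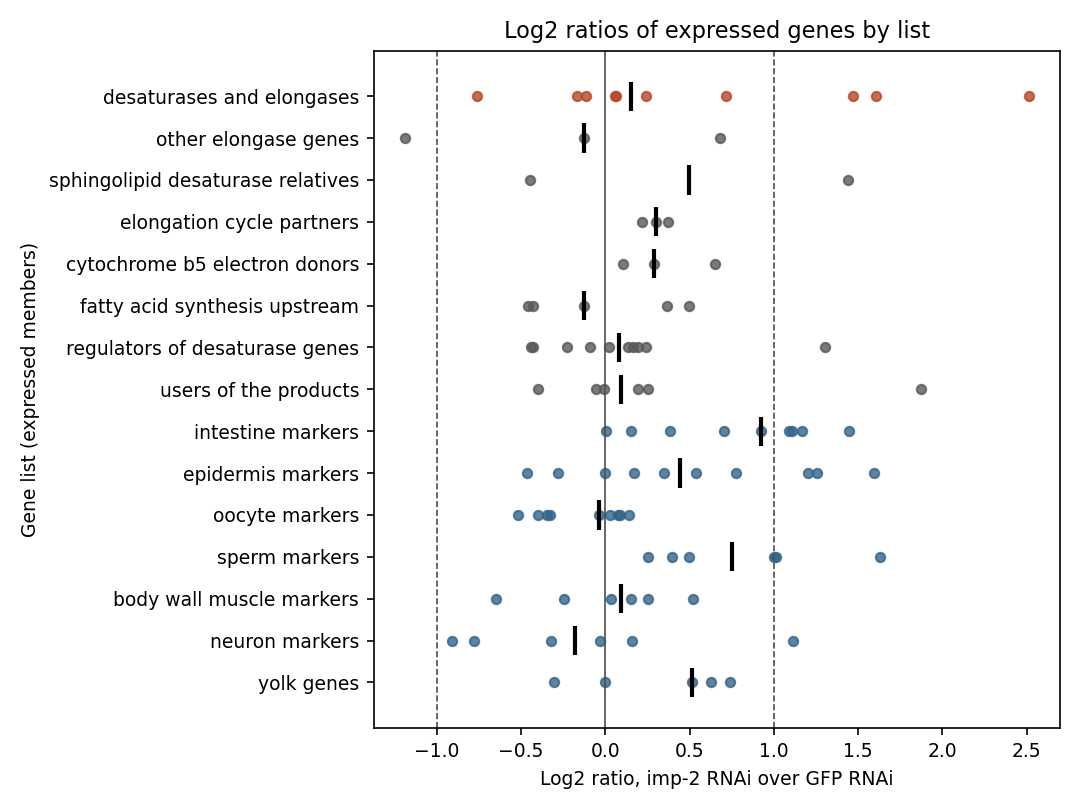
Log2 ratio of the imp-2 RNAi label over the GFP RNAi label (horizontal axis) for the expressed genes of each list (rows), with 1 point per gene, a black bar at the median of each list and dashed lines at 2-fold. The desaturases and elongases span from −0.76 to 2.51, while the elongation cycle partners lie between 0.22 and 0.37 and the intestine markers have a median of 0.93.

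Markers of tissues moved between the labels as well, and in whole animals fewer cells of a type and less RNA per cell cannot be told apart. Of 11 intestine markers with a probe set, 9 were expressed and all 9 had a log2 ratio above 0. Of these, 4 were past 2-fold higher on the imp-2-labelled array: ges-1, elt-7, ifb-2 and cpr-1. Over all expressed genes 9.72% were past 2-fold higher, and 16.2% of the 500 genes nearest to fat-5 in brightness. The 9.72% also stands beside the counts of the other marker lists below. The 16.2% does not apply to bright markers. Of the 500 genes nearest to elo-1 in brightness, 2.8% were past 2-fold higher. The elt-7 value on the GFP-labelled array lay under its floor, so that its fold is a bound, and of the 8 markers above the floor on both arrays 3 were past 2-fold higher, with a median of 0.81. The median of the 9 was 0.93, but 0.10 with the floor at each array's 75th percentile, and the summed intensity of the 11 was 7403 on the imp-2-labelled and 5449.8 on the GFP-labelled array. The lowest of the 9 was nhx-2, at 0.007 and so level between the labels, and asp-1 (0.16) and vha-6 (0.39) were small too. The intestinal GATA factor gene elt-2 lay under the floor on both arrays (32.9 and 23.6). Relative to the intestine median, fat-5, fat-6 and fat-2 lay above it by 1.59, 0.68 and 0.54 on the log2 scale. On the same footing fat-7 lay at −0.21, fat-1 at −1.04, elo-5 at −1.10 and elo-2 at −1.68. The median subtracted here equals the act-5 value, and the 9 markers ranged from 0.007 to 1.44, so the subtraction does not measure an intestinal part. The part of the intestine in these ratios was not tested.

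Epidermis markers had a median log2 ratio of 0.44, with 3 of 10 past 2-fold higher (rol-6, mup-4 and let-805). Their summed intensities were 1607 on the imp-2-labelled and 1296 on the GFP-labelled array. Of the 10, 7 lay above 0, while nhr-23 (−0.46), lin-26 (−0.28) and wrt-2 (−0.001) did not. The value of rol-6 on the GFP-labelled array lay under its floor, and over the 8 markers above the floor on both arrays 2 were past 2-fold higher and the median was 0.26. The yolk protein genes, which the intestine of the adult hermaphrodite expresses, had a median of 0.51 over 5 expressed genes, and 0 of the 5 passed 2-fold, although a dimmer vit-4 probe set had a log2 ratio of −1.25. Sperm markers had a median of 0.75 over 6 expressed genes, 2 of them past 2-fold higher (gsp-4 and spe-15), and summed intensities of 11296.5 and 8807 over all 8. The GFP-labelled value of spe-15 lay under the floor, and over the 5 sperm markers above the floor on both arrays 1 was past 2-fold higher and the median was 0.50. Oocyte, body wall muscle and neuron markers had medians of −0.04, 0.09 and −0.18 over 9, 6 and 6 expressed genes. In these 3 lists 1 gene passed 2-fold, unc-64 of the neuron list (log2 ratio 1.11), which fell short of it at 0.99 after quantile normalization and at 0.89 without the filter on dim genes. Markers of every tissue examined were thus present, as the whole-animal label states, and their part in the ratios of the desaturase genes was not tested.

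**Figure D4:**
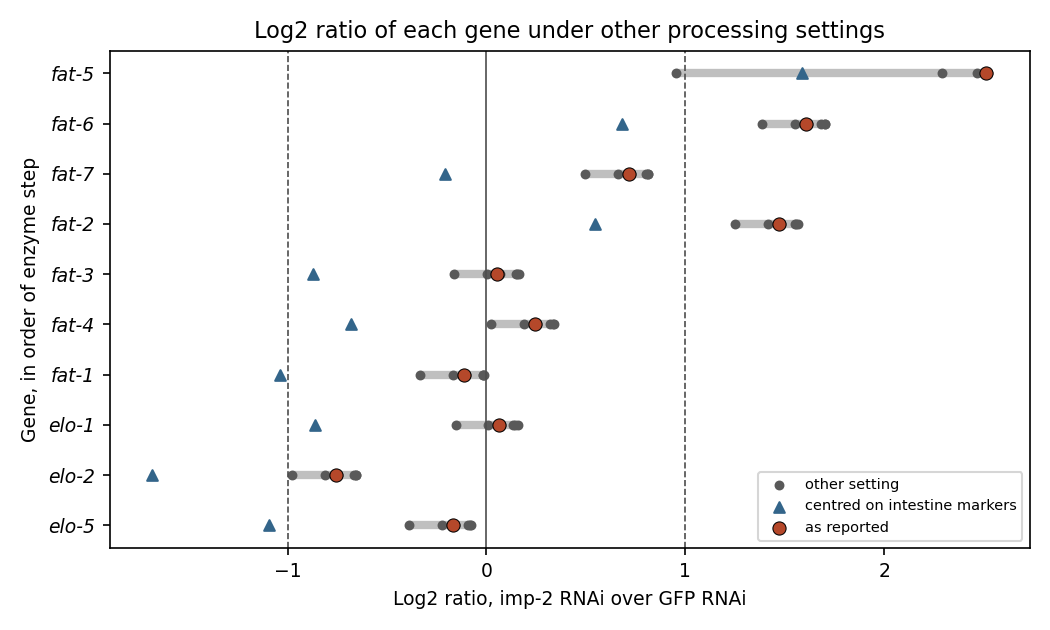
Log2 ratio of the imp-2 RNAi label over the GFP RNAi label (horizontal axis) for each gene as reported (large circle), under 9 other settings (small dots, joined by a grey bar) and after centring on the intestine markers (triangle), with dashed lines at 2-fold. The dots stay within 0.22 of the reported value except for 1 of fat-5 (0.95), where its GFP-labelled reading was raised to a higher floor. Most of the settings could only shift the genes kept by a common amount.

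The 10 ratios moved by at most 0.22 in 8 of 9 other settings of the processing. Most of these settings could not change the genes singly, since each gene has 1 probe set, above the median floor. Omitting the floor or the centring, the probe set choice and the filters could only shift the genes kept by a common amount. Over the 9 settings and the reported one, fat-2 lay between 1.25 and 1.57 and fat-6 between 1.39 and 1.70, past 2-fold in each setting that kept their probe sets. The gene fat-5 lay between 2.29 and 2.52 except with a floor at each array's 75th percentile (180.1 and 172.1), which lies above its GFP-labelled value, so that its ratio became a bound of 0.95. The gene fat-7 lay between 0.50 and 0.81 and elo-2 between −0.98 and −0.66, short of 2-fold throughout. The signs of fat-3 (−0.16 to 0.16) and elo-1 (−0.16 to 0.16) depended on the setting, so no direction is given for either.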

How the data were processed

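Total RNA of whole animals was hybridised to Affymetrix arrays, 1 per group, per the labels. The deposited values are probe set intensities on a linear scale, already summarised per probe set by the authors. The sources used here do not give the summarisation, background correction, scaling or array build. Groups came from the labels' text on the RNA that was fed.

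Probe sets were named from the platform annotation, with symbols checked by gene ID against the WBcel235 gene table. Its coordinates are not printed. Of 22548 non-control probe sets, 887 with several genes and 895 with none were left out of gene results. Values below an array's median were raised to it, a log2 ratio was taken, and ratios were centred on the median of 8553 expressed genes (a shift of 0.01). The brightest probe set stood for a gene. Ranks among the 500 genes nearest in mean log2 intensity describe these arrays.

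The members and the gene lists were chosen with earlier results of these data known. Named genes were all members and, from each pathway list, those past 2-fold or else the highest and lowest, with a few others named for their role. Symbols elo-8, seip-1, opt-2 and vit-3 matched no probe set with 1 gene. Protein and promoter comparisons were planned and were not made, because no sequences were at hand. The steps were tested on simulated data with planted changes larger than any log2 ratio given here, so that test does not bear on smaller ratios. In addition, 9 other settings listed beforehand and 1 chosen later were run (Python 3.11.15, numpy 2.4.6, pandas 2.3.3, statsmodels 0.14.6). The number of arrays limits the precision.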

Additional observations from a re-analysis of the deposited data

How the results depend on the processing

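With 1 array per group, these settings show what the processing changes and nothing of the spread between cultures. No paired analysis was possible because each group holds 1 array. Over the 9 settings listed beforehand, the count of members at least 2-fold lower stayed at 0. The count at least 2-fold higher was 3, except for 2 with a floor at the 75th percentile, which ends the call of fat-5, 2 with the filter at the 75th percentile, which removes fat-5, and 2 without suffixed probe sets, which removes fat-6. Centring on the median of the intestine markers, chosen after seeing the data, left 1 member at least 2-fold higher (fat-5) and put 3 at least 2-fold lower (fat-1, elo-2 and elo-5), with a median of −0.77. That setting subtracts 0.93 from each ratio by construction. Without the filter on dim genes, the centre is the log2 ratio of the floors and each ratio falls by a further 0.22. Over all expressed genes, the counts at least 2-fold higher and lower were 831 and 194, but 140 and 83 with the floor at the 75th percentile, 239 and 51 with the filter at the 75th percentile, and 530 and 402 without the filter. Among calls, the share higher was 81.1%, and 62.8% and 56.9% with the higher floor and without the filter. The ratios of sbp-1, acs-22, ttm-5 and unc-64 became 0 with the higher floor, which lies above both of their values. Where a setting of those 9 gave a value, no ratio past 2-fold took the opposite sign among the 10 members, elo-6 and these 4 genes. A ratio set to 0 by the higher floor could not do so. Nor could most settings have reversed the 10 members singly, since they shifted those kept by a common amount. Without suffixed probe sets, elo-6, sbp-1, acs-22 and unc-64 had no value. With the filter at the 75th percentile, sbp-1, acs-22, ttm-5 and unc-64 had none. Marker medians moved more: with the higher floor that of the intestine was 0.10, of the epidermis 0 and of sperm 0.27. The sperm median was 1.30 over 2 genes without suffixed probe sets and 0.23 without the filter, and the neuron median was −0.79 over 3 genes without suffixed probe sets and 0.25 for the 1 gene left by the filter at the 75th percentile.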

Other observations

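In the gene order of WBcel235, fat-1 and fat-2 are neighbours, with 0 protein-coding genes between them, and so are fat-3 and fat-4. Within the first pair the log2 ratios differed, at −0.11 for fat-1 and 1.47 for fat-2. On its other side fat-2 is flanked by far-6, a gene of the fatty acid and retinol binding family, which had a log2 ratio of −0.04. The ratios of fat-3 and fat-4 were close, at 0.06 and 0.24, and the gene on the far side of fat-4, T13F2.2, had −0.02. The genes elo-5 and elo-6, with 3 protein-coding genes between them, had log2 ratios of −0.17 and −1.19. Both flanking genes of fat-5 and both of fat-7 were below the expression threshold, so no ratio is given for them.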
